A study of Homo sapiens with 3 samples.

Results

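The comparison of K562 cells carrying EVI1+18 with K562 cells carrying the empty vector rests on 2 of the 3 RNA libraries of the series, 1 on each side. K562 is an established line grown from a chronic myelogenous leukaemia that keeps features of red cell and megakaryocyte precursors. With polybrene added to all groups, the cells were infected with retrovirus, made in a packaging line, carrying the pMYs-IG vector without an insert, with HA-tagged EVI1-WT or with HA-tagged EVI1+18, and those positive for GFP were sorted 3 days later and grown on before sampling. Each group is thus a sorted pool of infected cells of 1 line, kept in the same medium, with EVI1 driven by a retroviral vector rather than by its own gene. What the number in the name EVI1+18 counts is not stated in the labels. The third library, EVI1-WT, is given beside the others as a value only, since it would be compared with the same empty vector library.

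EVI1 is a zinc finger transcription factor made from the MECOM gene, which is active in blood stem cells and is switched on by chromosome rearrangements in some aggressive myeloid leukaemias. It binds DNA through separate groups of zinc fingers and works with corepressors, and in myeloid cells it is known for holding back differentiation. Since K562 cells are a blend of erythroid and megakaryocytic traits, genes of red cells, leukocytes and stress responses are the ones most often examined in this line after a transcription factor is added.

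The libraries held 17794423 counts (empty vector), 18439311 counts (EVI1-WT) and 20772348 counts (EVI1+18), and 10406 of 26334 genes averaged 50 counts or more across the 3 libraries and are described. Each set of 3 counts is given in the order empty vector, EVI1-WT and EVI1+18. A ratio is that of counts scaled by library (TMM) between EVI1+18 and empty vector, followed in parentheses by its exact 95% counting interval, which covers counting error only. With 1 library a side no spread between cultures was measured, no test was run, and each value describes 2 libraries, not the effect of a construct. As a check of the labels, MECOM had 793, 1039 and 2012 counts, or 43.9, 56.9 and 97.3 CPM after scaling, and was 2.21-fold (2.04 to 2.41) higher with EVI1+18. Counts of the endogenous MECOM transcript and of the vector's copy cannot be told apart in these tables.

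Most genes were at nearly the same level in the EVI1+18 and empty vector libraries. At least 2-fold higher with EVI1+18 were 105 genes, or 1.01% of those described, and at least 2-fold lower were 87, or 0.836%. With a size of 1.5-fold the numbers were 343 higher (3.3%) and 232 lower (2.23%), and 94.5% of genes lay within 1.5-fold. Above a ratio of 1 were 49.9% of genes, and the median log2 ratio was -0.00042. These shares are the background for each group of genes. The log2 ratio was -0.39 at the 5th percentile of genes and 0.49 at the 95th, and -0.88 at the 1st and 1.0 at the 99th.

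**Figure D1:**
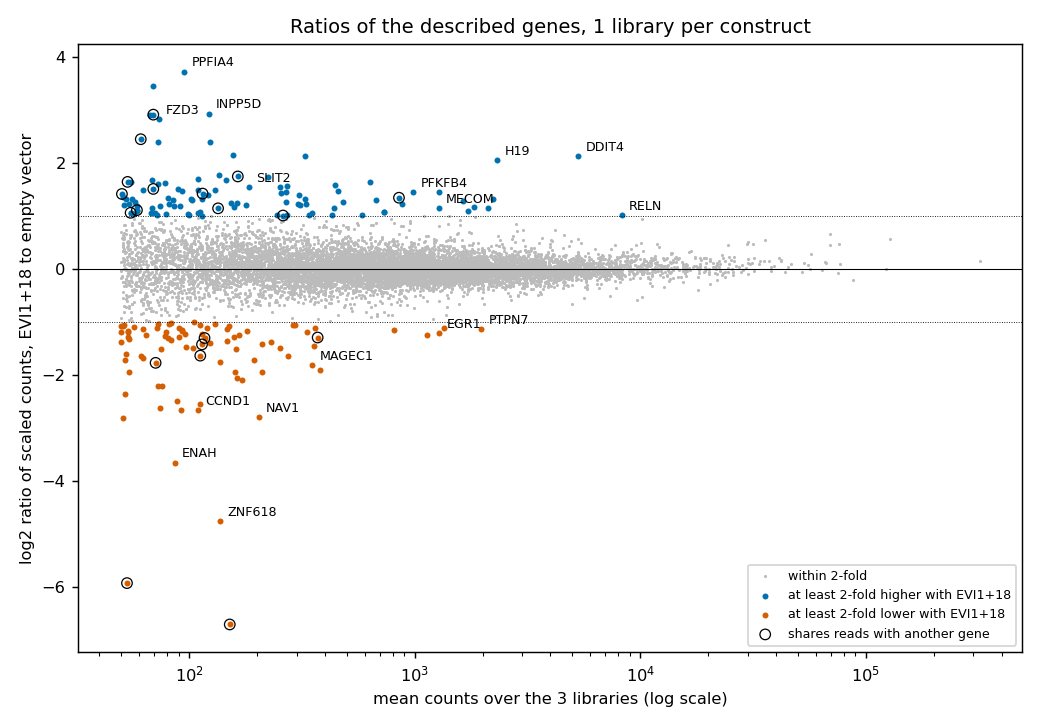
Log2 ratio of scaled counts between EVI1+18 and empty vector (vertical axis) against the mean count over the 3 libraries (horizontal axis, log scale) for 10406 described genes, 1 point per gene. The 105 genes past 2-fold on the high side and the 87 on the low side lie outside the dotted lines, most of them at low counts, and black rings mark those whose reads are shared with another gene.

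The ratio moved with the make-up of the transcript. Among 10282 described genes with a known GC content, split into 5 groups of equal size, 29.3% exceeded a ratio of 1 in the group with the lowest GC and 71.7% in the group with the highest, with median log2 ratios of -0.10 and 0.11. By transcript length the share went from 66.5% in the shortest group to 33.5% in the longest. With the median of genes of like length and GC taken off, a correction chosen after the data were seen, the hypoxia list was at 0.42, blood group genes at 0.55, axon guidance at 0.44, glycolysis at 0.23, histones at -0.51 and cancer-testis genes at -0.17. Before this correction these 6 lists were at 0.43, 0.52, 0.38, 0.32, -0.45 and -0.17 in the same order. Other lists moved as well. The ERK list went from -0.23 to -0.085, globins from 0.41 to 0.26, granulocyte and monocyte genes from 0.43 to 0.33, the enzymes that control glycolysis from -0.22 to -0.14 and Hippo genes from -0.18 to -0.12. Megakaryocyte genes went from -0.11 to -0.22 and cholesterol genes from -0.10 to -0.16, further from 0. Ribosomal proteins went to 0.09, the respiratory chain to -0.0091 and leukocyte signalling genes to -0.0036. The part of GC content and length in these shifts was not tested further.

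**Figure D2:**
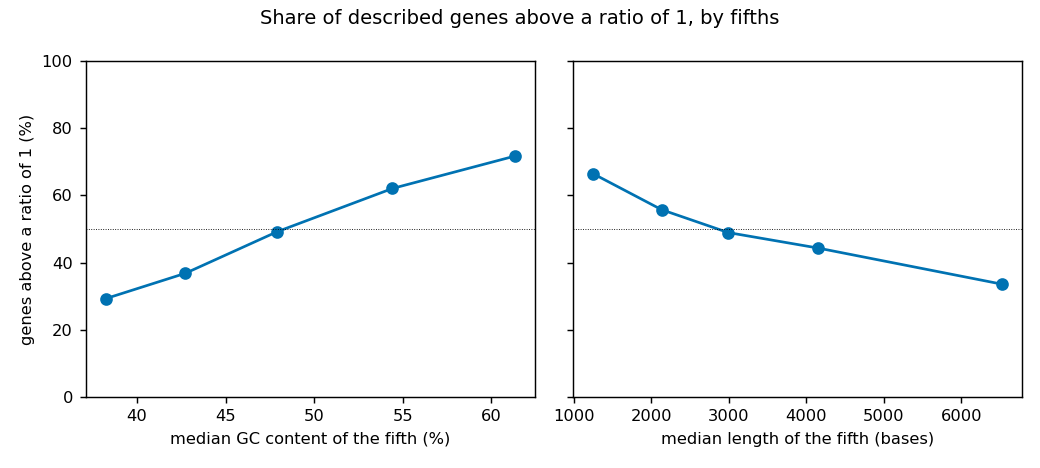
Percent of described genes above a ratio of 1 between EVI1+18 and empty vector (vertical axis) in 5 groups of equal size by GC content (left) and by transcript length (right), each point at the group's median. The share rises from 29.3% to 71.7% with GC content and falls from 66.5% to 33.5% with length.

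Genes known as targets of the hypoxia-inducible factors, the transcription factors that are stabilised when oxygen is low, were mostly higher with EVI1+18 and held more members at least 1.5-fold higher than any other of the 101 lists examined. Of 40 listed targets outside glycolysis, 28 were described, 26 of them exceeded a ratio of 1, 10 reached 1.5-fold and 5 of these 2-fold, with none at least 1.5-fold lower. Their median log2 ratio was 0.43. Blood group genes came next, with 9 of 18 described members at least 1.5-fold higher. The lists differ in size and were chosen with earlier results of these data known, so a rank among them is a description only. The labels name no hypoxic treatment, and the culture protocol in them is the same for every library.

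PPFIA4, a liprin that organises membrane scaffolds, had 11, 109 and 166 counts and was 13.2-fold (7.17 to 26.9) higher. MIR210HG, the host transcript of the hypoxia microRNA miR-210 and a gene chosen after its values were seen, had 11, 60 and 137 counts and was 10.9-fold (5.89 to 22.3) higher. ANKRD37, an ankyrin repeat protein, had 15, 57 and 129 counts and was 7.50-fold (4.38 to 13.8) higher, although its exons overlap those of UFSP2 on the other strand and the use of strand in counting is not given in the sources used here. In all 3 genes the empty vector library was far below both EVI1 libraries, and the EVI1+18 library was the highest. DDIT4, a stress-induced brake on the MTOR kinase, was far more abundant, with 1954, 4211 and 9758 counts and a ratio of 4.36 (4.15 to 4.58). RAB20, a small GTPase of membrane traffic, had 67, 84 and 192 counts and was 2.50-fold (1.88 to 3.35) higher. VEGFA, the growth factor for blood vessels, had 1276, 1833 and 3257 counts and was 2.23-fold (2.09 to 2.38) higher. These libraries kept the same order for DDIT4, RAB20 and VEGFA, with EVI1-WT between the others.

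The mitophagy receptors BNIP3 and BNIP3L, which mark mitochondria for removal in maturing red cells and under low oxygen, were both just under 2-fold. BNIP3L had 828, 1540 and 1893 counts and a ratio of 1.99 (1.84 to 2.17), and BNIP3 had 964, 1718 and 2092 counts and a ratio of 1.89 (1.75 to 2.05). SLC6A8, the creatine transporter, had 1877, 2699 and 3845 counts and was 1.79-fold (1.69 to 1.89) higher. BHLHE40, a clock-linked repressor, had 1304, 961 and 2394 counts, so that the EVI1-WT library was the lowest of the 3, and was 1.60-fold (1.5 to 1.71) higher with EVI1+18. ZNF395 was 1.52-fold (1.36 to 1.70) higher. The other 18 described targets lay within 1.5-fold, from 0.910 (0.847 to 0.978) for TET1, a DNA demethylase, to 1.44 (1.30 to 1.60) for the zinc finger gene ZNF292.

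The factors themselves had a median closer to 0 than their targets. Of 11 genes for the hypoxia-inducible factors and the enzymes that control them, 9 were described, 5 of these exceeded a ratio of 1, 2 reached 1.5-fold and the median log2 ratio was 0.05. HIF1A, the oxygen-regulated subunit, was 1.26-fold (1.14 to 1.39) lower with EVI1+18, on 843, 841 and 767 counts. EGLN3, a prolyl hydroxylase that marks that subunit for destruction and is itself a known target, was 1.81-fold (1.63 to 2.01) higher on 519, 842 and 1077 counts. Only RNA was measured, so the level of the protein is not known.

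The hypoxia-inducible factors recognise DNA with the core letters ACGTG or GCGTG. In the RefSeq promoter table (GRCh38.p14), the 250 bases before the start of a gene hold ACGTG on either strand in 18.7% of 27305 promoters and in 24.3% of the 8528 described genes that were matched by symbol. Of 28 described hypoxia targets 22 were matched and 17 of them, 77.3%, held it. With GCGTG counted as well, either form was found in 43.1% of all promoters, in 59.9% of those of described genes and in 19 of the 22 (86.4%). These genes were listed as known targets, so the excess describes the list and not the EVI1+18 library. Among all genes at least 2-fold higher, 21 of 80 matched promoters (26.3%) held ACGTG, near the share of described genes, and among those at least 2-fold lower 11 of 69 (15.9%). Either form was found in 39 of the 80 (48.8%) and in 31 of the 69 (44.9%), both below the share of described genes. GCGTG, with or without ACGTG, was found in 26 of the 80 (32.5%) against 47.9% of described genes. The 7 promoters printed here are those of the genes past 2-fold in the hypoxia list and the 2 lists of sugar metabolism that were matched by symbol, with MIR210HG, which was added after its values were seen. They are shown because these genes lead those groups. Each run is 5′ to 3′ on the strand of the gene, from 250 bases before its start to the last base before it, and capitals mark ACGTG and GCGTG or, for a match on the other strand, CACGT and CACGC. Where ACGTG overlaps its own match on the other strand, as in CACGTG, both are counted. PPFIA4 lies at chr1:203026241-203026490 (plus strand), MIR210HG at chr11:568458-568707 (minus strand), ANKRD37 at chr4:185396591-185396840 (plus), DDIT4 at chr10:72273674-72273923 (plus), PFKFB4 at chr3:48556804-48557053 (minus), PDK1 at chr2:172555123-172555372 (plus) and ENO2 at chr12:6914330-6914579 (plus).
PPFIA4: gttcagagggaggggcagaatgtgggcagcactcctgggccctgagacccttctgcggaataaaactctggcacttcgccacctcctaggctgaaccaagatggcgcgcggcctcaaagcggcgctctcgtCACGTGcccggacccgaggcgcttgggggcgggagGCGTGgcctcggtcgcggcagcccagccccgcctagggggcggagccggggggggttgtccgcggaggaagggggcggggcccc
MIR210HG: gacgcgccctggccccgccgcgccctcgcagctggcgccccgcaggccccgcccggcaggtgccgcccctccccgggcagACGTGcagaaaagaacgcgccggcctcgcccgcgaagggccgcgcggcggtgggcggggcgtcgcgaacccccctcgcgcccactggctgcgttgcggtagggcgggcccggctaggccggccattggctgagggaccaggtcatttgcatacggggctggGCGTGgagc
ANKRD37: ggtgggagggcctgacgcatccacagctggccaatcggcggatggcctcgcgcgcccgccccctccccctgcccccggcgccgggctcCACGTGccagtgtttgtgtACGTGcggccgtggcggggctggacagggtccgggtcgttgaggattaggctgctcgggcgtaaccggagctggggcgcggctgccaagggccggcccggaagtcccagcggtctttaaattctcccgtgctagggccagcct
DDIT4: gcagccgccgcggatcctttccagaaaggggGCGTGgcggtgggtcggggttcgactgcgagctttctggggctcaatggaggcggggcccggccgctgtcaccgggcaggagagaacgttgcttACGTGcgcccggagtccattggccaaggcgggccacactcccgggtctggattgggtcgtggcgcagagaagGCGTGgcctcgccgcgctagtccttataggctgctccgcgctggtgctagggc
PFKFB4: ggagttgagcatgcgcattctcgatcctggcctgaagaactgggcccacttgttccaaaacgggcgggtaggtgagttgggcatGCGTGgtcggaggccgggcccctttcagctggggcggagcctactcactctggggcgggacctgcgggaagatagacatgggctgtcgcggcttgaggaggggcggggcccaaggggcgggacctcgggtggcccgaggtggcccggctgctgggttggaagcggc
PDK1: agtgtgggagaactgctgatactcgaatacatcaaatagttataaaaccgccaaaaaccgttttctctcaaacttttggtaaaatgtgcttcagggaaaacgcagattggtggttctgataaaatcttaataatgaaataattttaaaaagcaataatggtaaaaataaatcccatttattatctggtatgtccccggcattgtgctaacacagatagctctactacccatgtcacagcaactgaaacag
ENO2: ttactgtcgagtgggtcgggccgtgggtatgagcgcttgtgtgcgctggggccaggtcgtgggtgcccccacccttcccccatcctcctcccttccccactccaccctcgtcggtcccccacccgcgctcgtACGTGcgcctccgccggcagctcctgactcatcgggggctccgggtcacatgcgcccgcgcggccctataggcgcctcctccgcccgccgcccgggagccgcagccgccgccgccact
The windows of PPFIA4, ANKRD37 and DDIT4 had 3 matches each, that of MIR210HG had 2, and those of PFKFB4 and ENO2 had 1 each, which in PFKFB4 was GCGTG. No match was found in the window of PDK1, which says only that these letters are not within this stretch. A match is a description of the sequence and not a bound site.

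**Figure D3:**
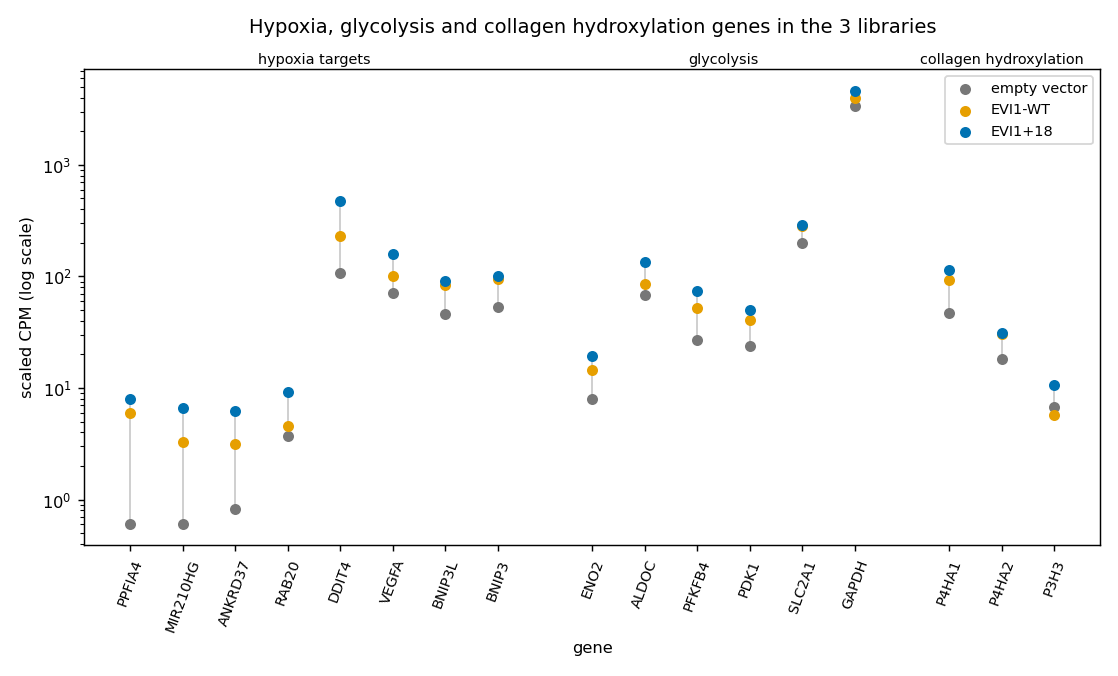
Scaled CPM (vertical axis, log scale) of hypoxia, glycolysis and collagen hydroxylation genes (horizontal axis) in the empty vector, EVI1-WT and EVI1+18 libraries, 1 point per library. EVI1+18 is the highest of the 3 in each gene shown, from 0.611 to 8.02 CPM in PPFIA4 and from 3338 to 4604 CPM in GAPDH.

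Glycolysis genes were higher by smaller amounts. Of 21 described genes for glucose uptake and the steps of glycolysis, 18 exceeded a ratio of 1, 2 reached 1.5-fold and 1 of them 2-fold, and the median log2 ratio was 0.32. ENO2, the neuronal enolase, had 145, 263 and 400 counts and was 2.41-fold (1.99 to 2.93) higher. ALDOC, the brain aldolase, had 1218, 1550 and 2765 counts and was 1.98-fold (1.85 to 2.12) higher. Among the abundant steps, ALDOA was 1.43-fold (1.41 to 1.45) higher and GAPDH 1.38-fold (1.37 to 1.39) higher. The tissue-restricted isoforms ENO2 and ALDOC thus had larger ratios than these abundant enzymes, while the lowest member, the glucose transporter gene SLC2A3, was at 0.979 (0.935 to 1.03).

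The enzymes that set the direction of glycolysis did not follow the pathway as a group, with 3 of 12 described members over a ratio of 1 and a median log2 value of -0.22. A pair of them stood out on the high side. PFKFB4, which makes the activator of phosphofructokinase, had 489, 946 and 1527 counts and was 2.72-fold (2.46 to 3.02) higher. PDK1, a kinase that inhibits pyruvate dehydrogenase, had 429, 741 and 1033 counts and was 2.10-fold (1.88 to 2.36) higher. PDP2, the phosphatase that works against such kinases, had 1064, 735 and 797 counts and was 1.53-fold (1.39 to 1.68) lower. Genes of the citric acid cycle were centred on a ratio of 1, with 11 of 22 above it, a median log2 ratio of 0.0041 and none past 1.5-fold.

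Collagen-modifying enzymes, several of which need oxygen and iron, were all above a ratio of 1, with 9 of 9 described members of 17 listed, 3 at least 1.5-fold higher and a median log2 ratio of 0.48. P4HA1, a catalytic subunit of collagen prolyl hydroxylase, had 851, 1702 and 2379 counts and was 2.44-fold (2.25 to 2.64) higher. Its relative P4HA2 had 325, 555 and 646 counts and was 1.73-fold (1.52 to 1.99) higher. P3H3, a prolyl 3-hydroxylase, had 122, 105 and 218 counts and was 1.56-fold (1.24 to 1.96) higher. For P3H3 the EVI1-WT library was not above empty vector, while for P4HA1 and P4HA2 it was. The lowest member was PLOD3, a lysyl hydroxylase, at 1.05 (0.988 to 1.11).

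Matrix and basement membrane genes, which blood cells express sparsely, were described for 19 of 68 listed, of which 15 exceeded a ratio of 1, 4 reached 1.5-fold on the high side and 1 on the low side, for a median log2 ratio of 0.34. COL18A1, the collagen from which endostatin is cut, had 1097, 2438 and 3117 counts and was 2.48-fold (2.31 to 2.66) higher, with an exon overlap on the other strand with SLC19A1 that leaves its count uncertain. LAMB1, a laminin chain, had 613, 763 and 1237 counts and was 1.76-fold (1.60 to 1.94) higher. HSPG2, which codes for perlecan, was 1.56-fold (1.49 to 1.62) higher on 3505, 3968 and 6253 counts. In the other direction, SPARC, a matrix protein of megakaryocytes and stroma, had 97, 25 and 34 counts and was 3.27-fold (2.19 to 4.99) lower. Outside the list, the rule named PCOLCE, an enhancer of procollagen cutting, with 98, 201 and 371 counts and a ratio of 3.30 (2.64 to 4.17). EMILIN2, an elastic fibre protein, had 47, 178 and 183 counts and was 3.40-fold (2.45 to 4.79) higher, and SDC2, a heparan sulfate proteoglycan of the cell surface, had 22, 64 and 132 counts and was 5.23-fold (3.32 to 8.64) higher.

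The amino acid stress response, run by the factor ATF4 when translation is slowed, was mildly higher. Of 26 described members, 19 exceeded a ratio of 1, 6 were at least 1.5-fold higher, 2 at least 2-fold and none at least 1.5-fold lower, with a median log2 ratio of 0.29. CHAC1, which breaks down glutathione, had 91, 151 and 248 counts and was 2.38-fold (1.86 to 3.06) higher. ATF3, a stress factor, had 157, 218 and 363 counts and was 2.02-fold (1.67 to 2.45) higher. SESN2, a leucine sensor that restrains MTOR, had 882, 1196 and 1777 counts and was 1.76-fold (1.62 to 1.91) higher. In these 3 genes the order of the libraries was again empty vector, EVI1-WT, EVI1+18. The lowest member was EIF2AK2, a kinase that can start the response, at 0.749 (0.674 to 0.833). The aminoacyl-tRNA synthetases, 20 of which were described, had a median log2 ratio of 0.04 with none past 1.5-fold. Genes for folding in the endoplasmic reticulum were at a median of 0.0038, and heat shock genes at -0.07, with none of either past 1.5-fold.

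Blood group genes had the highest median of the lists with at least 10 described members. Of 26 genes that carry or make blood group antigens, 18 were described, 17 exceeded a ratio of 1, 9 reached 1.5-fold and 2 of these 2-fold, for a median log2 ratio of 0.52. SEMA7A, which carries the John Milton Hagen antigen, had 193, 380 and 448 counts and was 2.03-fold (1.71 to 2.41) higher. FUT1, the fucosyltransferase that makes the H antigen, had 142, 100 and 305 counts, with EVI1-WT the lowest, and was 1.87-fold (1.53 to 2.30) higher. SMIM1, the Vel antigen, had 79, 124 and 160 counts and was 1.77-fold (1.34 to 2.34) higher. ERMAP, the Scianna antigen, had 1566, 2721 and 2742 counts and was 1.53-fold (1.44 to 1.63) higher. The Rh genes RHCE and RHD share reads, and their sum of 369, 739 and 681 counts was 1.61-fold higher (1.42 to 1.83). RHAG, the Rh-associated channel, was an exception among the abundant members, with 11804, 13741 and 13734 counts and a ratio of 1.02 (0.990 to 1.04).

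AQP1, the water channel of the red cell membrane, had 189, 500 and 644 counts and was 2.97-fold (2.52 to 3.51) higher, the only one of 24 described red cell membrane genes past 2-fold, in a list at a median log2 ratio of 0.09. Heme synthesis genes were mostly higher and by small amounts, with 17 of 19 above a ratio of 1, a median of 0.25 and a highest member, PPOX, at 1.52 (1.29 to 1.78). Both ferritin chains, the proteins that store iron, were higher, FTL 1.58-fold (1.56 to 1.60) and FTH1 1.45-fold (1.43 to 1.48). The globin list had 8 of 9 described members above a ratio of 1 at a median of 0.41, or 0.26 with length and GC taken off and 0.27 as a mean, led by the theta chain gene HBQ1 at 1.52 (1.24 to 1.86) and, among abundant members, HBG2 at 1.47 (1.46 to 1.48). By contrast the 26 described erythroid transcription factors were centred near a ratio of 1, with 11 above it, none past 1.5-fold and a median of -0.04.

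Leukocyte genes split in both directions. Of 27 described genes for signalling in blood cells, 5 reached 1.5-fold on the high side and 4 on the low side, 3 on each side passed 2-fold, and the median log2 ratio was 0.08. On the high side, INPP5D, the lipid phosphatase SHIP1, had 27, 105 and 235 counts and was 7.59-fold (5.09 to 11.8) higher. WAS, the actin regulator mutated in Wiskott-Aldrich syndrome, had 64, 138 and 233 counts and was 3.18-fold (2.40 to 4.26) higher. CORO1A, a coronin of leukocytes that shares reads with a copy, had 61, 96 and 187 counts and was 2.67-fold (1.99 to 3.63) higher, and with the copy added the sum was 2.69-fold higher (2.0 to 3.65). In these 3 genes EVI1-WT lay between the other libraries. FYN, a SRC family kinase, had 407, 234 and 764 counts and was 1.64-fold (1.45 to 1.85) higher, and here EVI1-WT was the lowest.

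On the low side, PTPRC, which codes for the CD45 phosphatase, had 568, 216 and 300 counts and was 2.17-fold (1.88 to 2.50) lower. LCP2, the adaptor SLP-76, had 443, 176 and 243 counts and was 2.09-fold (1.78 to 2.45) lower. ARHGDIB, an inhibitor of small GTPases in blood cells, had 164, 109 and 87 counts and was 2.16-fold (1.66 to 2.84) lower. LCP1, an abundant actin bundling protein, was 1.58-fold (1.53 to 1.64) lower on 6507, 3712 and 4709 counts. Outside this list, CD69, an early activation marker of lymphocytes, had 349, 43 and 96 counts and was 4.17-fold (3.32 to 5.28) lower. PTPN7, a phosphatase of blood cells that acts on MAP kinases, had 2749, 1749 and 1430 counts and was 2.20-fold (2.07 to 2.35) lower. For all 6 genes the empty vector library was the highest.

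Myeloid genes leaned upward where they were measurable. Of 38 granulocyte and monocyte genes 8 were described, 7 exceeded a ratio of 1 and 2 were at least 2-fold higher, at a median log2 ratio of 0.43. SPI1, which codes for the myeloid factor PU.1, had 271, 428 and 745 counts and was 2.40-fold (2.08 to 2.77) higher, CYBB, of the phagocyte oxidase, had 63, 87 and 147 counts and was 2.04-fold (1.51 to 2.78) higher, and LYZ, the lysozyme gene, had 162, 185 and 288 counts and was 1.55-fold (1.28 to 1.89) higher. FCGR2A, an Fc receptor that shares reads, was at 0.918 (0.854 to 0.988). Megakaryocyte genes were lower in 7 of 9 described, at a median of -0.11, led by GP6, the platelet collagen receptor, with 275, 101 and 110 counts and a ratio 2.87-fold (2.29 to 3.61) lower, and TUBB1, the platelet tubulin, 1.71-fold (1.39 to 2.11) lower.

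Signs of other cell types were looked for beside these leukocyte changes, since in a bulk library fewer cells of a type and less RNA per cell cannot be told apart. Of 28 lymphoid markers 4 were described, and 17, 17 and 16 had no count in the 3 libraries. The list summed to 143, 126 and 140 CPM. The defining markers CD8A, CD5, MS4A1 and PAX5 had no count in any library, CD3E had 5, 0 and 0 counts, and CD3D, with 179, 59 and 73 counts, was 2.81-fold (2.13 to 3.74) lower. Of 27 markers of the packaging cell type 8 were described, keratins among them, and 10, 13 and 10 had no count in the 3 libraries. This list summed to 1573, 1312 and 1538 CPM, and PAX2 and CDH2 had no count. Its described members ran from 0.697 for VIM to 1.77 for FZD2, with 4 above a ratio of 1 and 4 below. Of 18 stromal markers 2 were described, and 8, 8 and 9 had no count, LUM, PDGFRA and THY1 among them. The stromal list summed to 60.3, 68.2 and 54.6 CPM, with FN1 at 1.05 and SPARC, given above, 3.27-fold lower. The part of such cells in the leukocyte values was not tested.

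**Figure D4:**
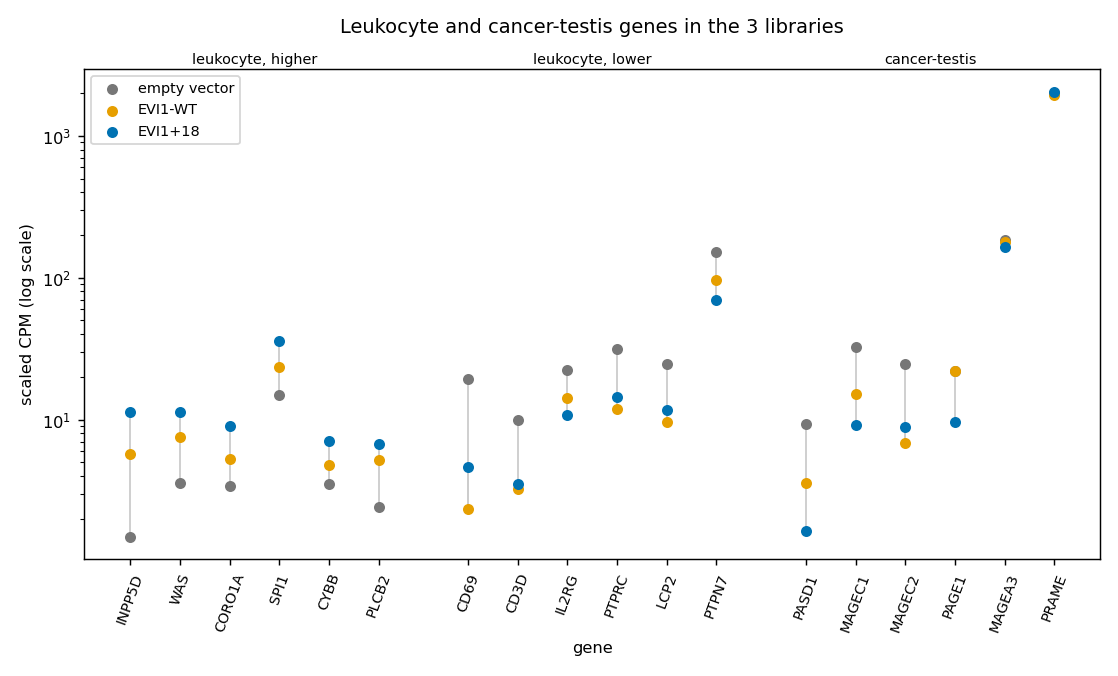
Scaled CPM (vertical axis, log scale) of leukocyte and cancer-testis genes (horizontal axis) in the 3 libraries, 1 point per library. Empty vector (grey) is the lowest of the 3 in the left group and the highest in the middle group, while of the cancer-testis genes PASD1, MAGEC1, MAGEC2 and PAGE1 are lowest or low with EVI1+18 and PRAME, at 1997 and 2054 CPM with empty vector and EVI1+18, is not.

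Axon guidance genes, best known from the nervous system and also used by blood and vessel cells, were mostly higher. Of 66 listed 21 were described, 18 exceeded a ratio of 1, 8 were at least 1.5-fold higher, 4 at least 2-fold and 1 at least 1.5-fold lower, for a median log2 ratio of 0.38. SLIT2, a secreted repellent, had 118, 40 and 394 counts and was 2.91-fold (2.37 to 3.61) higher, and its receptor gene ROBO2 had 148, 407 and 420 counts and was 2.48-fold (2.05 to 3.01) higher. The 2 differed in the EVI1-WT library, where SLIT2 was the lowest of the 3 and ROBO2 was near EVI1+18. PLXNA2, a semaphorin receptor, had 35, 62 and 122 counts and was 3.04-fold (2.07 to 4.56) higher, and PLXND1, another plexin, was 1.67-fold (1.51 to 1.84) higher on 629, 1014 and 1201 counts. The exception was EPHB6, a kinase-dead ephrin receptor, with 1279, 830 and 882 counts and a ratio 1.66-fold (1.52 to 1.81) lower. Outside the list, RELN, a secreted guide of migrating neurons and an abundant transcript here, had 4576, 9737 and 10568 counts and was 2.01-fold (1.95 to 2.09) higher.

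In the WNT pathway 6 of 27 described genes were at least 1.5-fold higher and none lower, at a median log2 ratio of 0.08. They were FZD3, WNT5B, KREMEN2, FZD2, NOTUM and LGR4, which code for a ligand, receptors and modulators of ligands or receptors. FZD3, a Frizzled receptor, had 19, 47 and 154 counts and was 7.07-fold (4.38 to 12.1) higher, the ligand WNT5B had 211, 318 and 431 counts and was 1.78-fold (1.51 to 2.11) higher, and KREMEN2, a surface inhibitor, had 41, 55 and 89 counts and was 1.89-fold (1.29 to 2.81) higher. CTNNB1, the central transducer beta-catenin, was at 0.973 (0.932 to 1.02) and APC, part of the complex that destroys it, at 0.767 (0.715 to 0.822).

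In the Notch pathway 13 of 17 described genes were below a ratio of 1, at a median log2 ratio of -0.10. The target repressors HES1 and HEY1 were the lowest, HES1 with 146, 70 and 71 counts and a ratio 2.36-fold (1.76 to 3.18) lower and HEY1 with 134, 77 and 68 counts and a ratio 2.26-fold (1.67 to 3.07) lower. DLK1, a ligand that does not activate the receptor in the usual way and is known as an inhibitor, had 433, 356 and 1227 counts and was 2.47-fold (2.21 to 2.76) higher. NOTCH1 was at 0.865 (0.784 to 0.955), and the nuclear partner RBPJ at 0.934 (0.871 to 1.0). In the EVI1-WT library HES1 and HEY1 were close to EVI1+18 and DLK1 was close to empty vector.

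The Hippo pathway, which restrains the growth coactivator YAP1, had 12 of 16 described members below a ratio of 1, and its median log2 ratio was -0.18. WWC2, an upstream scaffold, had 325, 57 and 97 counts and was 3.84-fold (3.05 to 4.87) lower, and the kinase gene LATS2 had 74, 50 and 43 counts and was 1.97-fold (1.34 to 2.94) lower. YAP1 itself had 0, 0 and 1 counts. Beside it, cell junction genes held the desmosomal plakophilin PKP2, with 143, 163 and 28 counts and a ratio 5.85-fold (3.88 to 9.12) lower, in a list of 24 described adhesion genes at a median of 0.04. For PKP2 the EVI1-WT library was as high as empty vector.

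Cytoskeletal lists had medians near 0 and single members far from it. Among 43 described actin genes, ENAH, a filament elongation factor, had 121, 127 and 11 counts and was 12.6-fold (6.80 to 25.9) lower, while FHDC1, a formin, had 38, 106 and 229 counts and was 5.26-fold (3.72 to 7.62) higher, and the list's median log2 ratio was -0.02. Among 41 described microtubule genes, NAV1, a plus-end tracking protein, had 447, 90 and 74 counts and was 6.92-fold (5.40 to 8.98) lower, MAP7, a kinesin cofactor, had 236, 86 and 129 counts and was 2.10-fold (1.68 to 2.62) lower, and the median was 0.04. Regulators of small GTPases lay on both sides. ARHGAP15, which switches off RAC, had 86, 53 and 14 counts and was 7.04-fold (3.98 to 13.4) lower, and ARHGAP4 had 466, 183 and 172 counts and was 3.11-fold (2.60 to 3.72) lower, with an exon overlap with NAA10. On the high side ARHGEF6, which activates RAC and CDC42, had 265, 387 and 565 counts and was 1.86-fold (1.60 to 2.16) higher. In the EVI1-WT library ENAH was close to empty vector and NAV1 close to EVI1+18.

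Lipid handling genes included an adjacent pair that was higher together. APOE, the apolipoprotein of cholesterol transport, had 1056, 1753 and 2710 counts and was 2.24-fold (2.08 to 2.41) higher, and its neighbour APOC1 had 385, 475 and 897 counts and was 2.03-fold (1.80 to 2.30) higher. LPL, the lipase that frees fatty acids from lipoproteins, had 267, 285 and 80 counts and was 3.83-fold (2.97 to 4.97) lower, with EVI1-WT at the level of empty vector. DAB2, an adaptor for uptake of lipoprotein receptors, had 170, 16 and 42 counts and was 4.64-fold (3.29 to 6.67) lower. HILPDA, which coats lipid droplets in low oxygen, had 166, 231 and 308 counts and was 1.62-fold (1.34 to 1.97) higher. Cholesterol synthesis and uptake genes had a median log2 ratio of -0.10, with 23 of 32 below a ratio of 1, while the 1 member past 1.5-fold, the oxysterol receptor gene NR1H3, was 1.51-fold (1.16 to 1.97) higher, and fatty acid genes one of -0.01.

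Among 54 described enzymes that build sugar chains, 5 reached 1.5-fold on the high side and 2 on the low side, at a median log2 ratio of 0.08. ST3GAL5, which makes the ganglioside GM3, had 63, 112 and 189 counts and was 2.62-fold (1.96 to 3.54) higher. GCNT2, which makes the I antigen branches, had 28, 59 and 75 counts and was 2.34-fold (1.5 to 3.75) higher, and GALNT6, which starts mucin-type chains, had 233, 522 and 538 counts and was 2.01-fold (1.72 to 2.36) higher. ST6GAL1, which adds sialic acid in another linkage, had 3079, 1696 and 1875 counts and was 1.88-fold (1.78 to 1.99) lower, and FUT8, the core fucosyltransferase, had 243, 175 and 177 counts and was 1.57-fold (1.29 to 1.92) lower.

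Of 21 described imprinted genes, which are read from 1 parental copy, 3 were at least 2-fold higher and none lower, and the median log2 ratio was 0.13. H19, a non-coding RNA, had 743, 2696 and 3527 counts and was 4.14-fold (3.83 to 4.49) higher. CDKN1C, a cell cycle inhibitor near it in the genome, had 181, 240 and 486 counts and was 2.34-fold (1.97 to 2.79) higher. DLK1, given above, was the third, and the abundant imprinted genes GNAS and IGF2R were at 1.12 (1.09 to 1.15) and 0.942 (0.911 to 0.973).

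Cancer-testis genes, which are silent in most adult tissues outside the testis and are active in K562, held more members at least 2-fold lower than any other list examined. Of 55 listed 25 were described, 18 were below a ratio of 1 and 6 were at least 2-fold lower, with none at least 1.5-fold higher, at a median log2 ratio of -0.17. PASD1 had 167, 65 and 34 counts and was 5.63-fold (3.88 to 8.40) lower. MAGEC1 had 586, 276 and 191 counts and was 3.52-fold (2.98 to 4.16) lower, and MAGEC2, in the same stretch of the X chromosome, had 448, 125 and 183 counts and was 2.81-fold (2.36 to 3.35) lower. PAGE1 had 398, 401 and 199 counts, with EVI1-WT at the level of empty vector, and was 2.29-fold (1.93 to 2.73) lower. Copies that share reads are firmer as sums, at 1.80-fold lower (1.48 to 2.21) for MAGEA9 with MAGEA9B and 2.69-fold lower (2.12 to 3.43) for the VCX genes. MAGEA9B alone, with 159, 0 and 0 counts, is among the 6 genes past 2-fold, although that sum is not. MAGEA9 alone was at a ratio of 1.47. The most abundant member, PRAME, was at 1.03 (1.01 to 1.04) and MAGEA3 at 0.891 (0.849 to 0.935), while DDX53 and XAGE1B were at 0.872 (0.659 to 1.15) and 0.995 (0.910 to 1.09).

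Histone genes made in S phase were lower by less and more evenly. Of 21 described 19 were below a ratio of 1, 5 were at least 1.5-fold lower and none at least 2-fold, for a median log2 ratio of -0.45, the lowest among the lists with at least 10 described members. HIST1H2AD, of the H2A class, had 184, 91 and 112 counts and was 1.88-fold (1.48 to 2.40) lower, though it shares reads. HIST1H1C, a linker histone and one of the most abundant members, had 7494, 3552 and 5837 counts and was 1.47-fold (1.42 to 1.52) lower. Replication genes were centred on a ratio of 1, with a median of -0.00041 over 52 and none past 1.5-fold. Mitosis genes were slightly below, with 47 of 60 under a ratio of 1, none past 1.5-fold and a median of -0.08.

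Genes switched on by the ERK kinase and those that feed back on it had a median log2 ratio of -0.23. Of 17 described 10 were below a ratio of 1 and 7 above it, the highest being MAFF at 1.41. At least 1.5-fold lower were 3 of them, and none was at least 1.5-fold higher. With length and GC taken off the median was -0.085. CCND1, which codes for cyclin D1, had 265, 15 and 48 counts and was 6.33-fold (4.64 to 8.80) lower, with EVI1-WT the lowest of the 3. Its exons overlap those of ORAOV1 on the other strand, which leaves its count uncertain. MYEOV, named after its values were seen, neighbours CCND1 with no described gene between them. It had 1261, 512 and 654 counts and was 2.21-fold (2.01 to 2.43) lower. DUSP10, a phosphatase of stress kinases, had 72, 55 and 34 counts and was 2.43-fold (1.59 to 3.76) lower, and ETV5, an ETS factor downstream of ERK, had 524, 369 and 384 counts and was 1.56-fold (1.37 to 1.79) lower. EGR1, which is not in that list, is an early response factor and the lowest of 22 described immediate-early genes, of which 13 exceeded a ratio of 1 at a median of 0.09. It had 2441, 213 and 1209 counts and was 2.31-fold (2.16 to 2.48) lower, with EVI1-WT the lowest of the 3.

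Single genes outside these groups were among the furthest from a ratio of 1. ZNF618, a zinc finger gene, had 378, 18 and 16 counts and was 27.1-fold (16.5 to 47.9) lower, with EVI1-WT as low. SAMD5 had 203, 36 and 37 counts and was 6.29-fold (4.41 to 9.19) lower. FHL2, a LIM domain cofactor, had 117, 13 and 26 counts and was 5.16-fold (3.35 to 8.22) lower. FGF13, an intracellular relative of the growth factors that binds sodium channels, had 356, 61 and 95 counts and was 4.30-fold (3.42 to 5.44) lower, and the sodium channel gene SCN9A had 302, 197 and 130 counts and was 2.66-fold (2.16 to 3.30) lower. On the high side, SYTL4, a carrier of secretory granules, had 61, 96 and 311 counts and was 4.45-fold (3.37 to 5.95) higher. CD24, a surface sialoglycoprotein, had 268, 684 and 951 counts and was 3.10-fold (2.70 to 3.56) higher. OSGIN1, induced by oxidative stress, had 85, 464 and 426 counts and was 4.37-fold (3.46 to 5.59) higher, at the level of EVI1-WT. ZNF521, a zinc finger gene of blood stem cells, had 124, 295 and 389 counts and was 2.74-fold (2.23 to 3.38) higher.

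The remaining genes named by the rule had few shared roles. Higher were IGSF10, a secreted immunoglobulin superfamily protein, with 178, 629 and 568 counts and a ratio of 2.78 (2.35 to 3.31), and SLC16A9, a relative of the lactate transporters, with 80, 409 and 268 counts and a ratio of 2.92 (2.27 to 3.80). LGALS12, a galectin, TRANK1 and FAM178B were at 3.23 (2.29 to 4.63), 2.95 (2.42 to 3.61) and 2.74 (2.51 to 3.01). Lower were CPS1, the first enzyme of the urea cycle, with 94, 41 and 28 counts and a ratio 3.85-fold (2.50 to 6.10) lower, and DNAJC12, a cochaperone of the amino acid hydroxylases, with 598, 225 and 249 counts and a ratio 2.75-fold (2.37 to 3.20) lower. KRT10, a keratin, was 2.38-fold (2.20 to 2.58) lower, DHRS2, a dehydrogenase, 3.39-fold (2.66 to 4.35) lower, DCHS2, a protocadherin, 3.31-fold (2.62 to 4.21) lower, and AMIGO2, an adhesion protein with an exon overlap on the other strand, 4.65-fold (3.22 to 6.85) lower. PM20D2, a dipeptidase, was 6.14-fold (4.08 to 9.55) lower and ZNF208, a zinc finger gene, 3.20-fold (2.25 to 4.63) lower. In the EVI1-WT library each of the genes with counts in this paragraph was on the same side of empty vector as in EVI1+18.

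Of the 192 genes past 2-fold, 19 had reads that the authors' counting shared with another gene, and these are uncertain. With partners added, RPL21 and its copy were at 1.08, COMMD3-BMI1 with COMMD3 and BMI1 at 0.877, TICAM2 with its read-through partners at 0.869 and PHOSPHO2-KLHL23 with its partners at 0.898, so the differences of the single entries did not appear in the sums. Sums for FAM133DP, FSBP, PGBD3, SMN2, TUBB2B, AMZ2P1, POLR2J2, GLUD2 and PLA2G4B with their partners were also within 1.5-fold. They ran from 0.809 for GLUD2 to 1.49 for PLA2G4B. The sum of SSX2 and SSX2B remained 2.45-fold lower (2.14 to 2.82). Other sums stayed past 2-fold, as for CORO1A and the VCX genes above, or past 1.5-fold, as for MAGEA9 with MAGEA9B.

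Housekeeping groups and RNA quality transcripts gave a scale for small shifts. Of 8 listed nuclear-retained and mitochondrial transcripts 3 were described, the long non-coding RNAs MALAT1 at 1.02 (0.987 to 1.05), NEAT1 at 1.18 (1.14 to 1.22) and KCNQ1OT1 at 1.25 (1.12 to 1.38), for a median log2 ratio of 0.24, or 0.31 with length and GC taken off. That median is near those of heme synthesis and glycolysis genes, and its part in them was not tested. Ribosomal protein genes exceeded a ratio of 1 for 78 of 79 members, at a median log2 ratio of 0.15, and 1 of them, RPL21, passed 1.5-fold. Genes of the respiratory chain were at 0.08, the proteasome at 0.06, mitochondrial ribosomal proteins at 0.0093, splicing factors at 0.0044 and ribosome biogenesis at -0.06. Of these, splicing factors alone held another gene past 1.5-fold, PRPF40B, at 1.62 (1.22 to 2.16).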

How the data were processed

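RNA from 3 K562 libraries was compared by gene, 1 library per construct. Per the file headers, the authors deposited an expected count and a TPM value per gene and library. The expected count is an estimate in which reads that match several transcripts are shared. TPM values, which the authors scaled by length, served as an alternative. The build was hg19 and bcl2fastq was used, per the submitters' processing notes, while details of alignment, counting, annotation and strand were not given in the sources used here. The deposited transcript length was used for the groups by length.

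Expected counts were rounded and scaled with TMM factors of edgeR 4.0.16 (1.01, 0.990 and 0.996 for empty vector, EVI1-WT and EVI1+18) under R 4.3.3. No model was fitted. Genes averaging 50 counts or more were kept. Intervals are exact Clopper-Pearson, conditional on the sum of both counts (scipy 1.17.1, Python 3.11.15), and cover counting error only, as the labels name no molecular identifiers and PCR copies may be among the counts. A count of 0 was set to the floor of 3. The ratio and interval code was tested on simulated data. GC content came from the longest GENCODE transcript, and promoters from the RefSeq table of GRCh38.p14.

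The genes compared and the 101 gene lists were chosen with earlier results of these data known, and lists share members. Named are MECOM, the 30 higher and 30 lower genes ranked by the interval bound closest to 1 (uncharacterised loci, small RNAs and antisense transcripts left out), and from each list at most 6 members beyond 1.5-fold, the highest and lowest, and the 2 most abundant. Named outside that rule, after their values were seen, are ALDOA, FUT8, FYN, MIR210HG, MYEOV, NOTCH1, PLXND1, PTPN7, RELN, SMIM1, ZNF292, ZNF395, DDX53, XAGE1B and the marker genes at or near 0 counts. Alternatives were other scalings, TPM, other count minimums, a stricter size rule and list means. A few genes are not reported here.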

Additional observations from a re-analysis of the deposited data

How the results depend on the processing

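No paired analysis was possible because each construct has 1 library, and for the same reason no library could be left out. The 105 higher and 87 lower genes became 48 and 57 with TPM plus 1 TPM, 295 and 282 with a minimum mean of 10 counts, 64 and 45 with a minimum mean of 100 counts, and 45 and 46 with the whole counting interval beyond 2-fold. The last 2 changes follow from fewer genes or a stricter rule by construction, and for TPM the cause was not tested. Under each other alternative tried, among them 3 other scalings and 0.5 added to both counts, the counts stayed within 1.5 times. With the medians of genes of like length and GC taken off, an alternative added after the data were seen, 92 of the 105 and 80 of the 87 kept their call. No other scaling moved the median of all genes by over 0.1 on the log2 scale. Of list medians at least 0.1 from 0, 1 changed sign with the mean of the list, that of the enzymes that control glycolysis (-0.22 to 0.025), and 1 with length and GC taken off, that of K562 marker genes (0.11 to -0.013). Of 97 medians, others nearer to 0 changed sign in 39 cases with TPM, 18 with length and GC taken off, 14 with the mean and 13 with library totals only, so the sign of a median within 0.1 of 0 is not firm. The median moved by at least 0.1 in 64 lists with TPM, where the median of all genes was -0.098, in 9 with length and GC taken off and in 16 with the mean, which was 0.68 for hypoxia targets, -0.59 for cancer-testis genes, -0.34 for megakaryocyte genes and -0.29 for Hippo genes. The cancer-testis mean includes MAGEA9B, which shares reads and was at a log2 ratio of -5.92 with its 0 counts set to the floor of 3. Of the named ratios 6 genes near 1 crossed it. With TPM, MALAT1 was at 0.948, PLOD3 at 0.976, PRAME at 0.955 and RHAG at 0.944. With length and GC taken off, PLOD3 was at 0.981, PRAME at 0.991, CTNNB1 at 1.01 and RBPJ at 1.04. With library totals only, RHAG was at 0.997. Counting error limits genes near the minimum of 50 counts, where intervals span several fold, and differences between cultures were not measured.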
